A study of Mus musculus with 10 samples.

Results

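The genes described here are 8 cytokines and receptors of the interleukin-6 (IL-6) and interleukin-10 (IL-10) systems, chosen by name from 24385 genes in the count table: the ligand genes Il6, Lif, Osm and Il10 and the receptor genes Il6ra, Il6st, Il10ra and Il10rb. They were measured in bone marrow-derived dendritic cells (BMDCs), antigen-presenting cells grown from marrow with the growth factor GM-CSF (20 ng/mL), from female wild-type C57BL/6 mice 8 to 10 weeks old. In the AMLE group, non-adherent immature cells of day 6 were exposed for 24 h to apple mango leaf extract at 400 µg/mL, and in the DMSO group the same kind of cells received 0.04% dimethyl sulfoxide, the vehicle, for 24 h. RNA was sequenced in 3 AMLE and 3 DMSO libraries, and open chromatin (ATAC-seq, in which a transposase cuts accessible DNA) in 2 AMLE and 2 DMSO libraries of 100000 cells each. Whether libraries of a group came from separate mice or cultures is not in the labels; the p-values therefore cover the spread between these libraries, which may be technical. The cells are a mixed culture, and in bulk RNA fewer cells of a type and less RNA per cell cannot be told apart.

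IL-6 binds its own receptor chain, IL-6 receptor alpha (Il6ra), and the pair then engages the shared signalling chain gp130 (Il6st). Leukaemia inhibitory factor (Lif) and oncostatin M (Osm) use the same gp130 chain together with the LIF receptor (Lifr) or the oncostatin M receptor (Osmr), and all of these complexes activate JAK kinases and the transcription factor STAT3. IL-10 binds IL-10 receptor alpha (Il10ra), which pairs with IL-10 receptor beta (Il10rb), a chain that receptors for IL-22 and interferon lambda also use, and it signals through JAK1, TYK2 and STAT3. Dendritic cells release IL-6 when activated, while IL-10 restrains their maturation.

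Start-site sequence was at hand for 4 of the 8 genes (Il6, Lif, Il6ra and Il6st), as 250 bases before to 50 after the start, credited to RefSeq on build GRCm38.p6, the same build as the mm10 of the submitters' notes. Shown are the ligand genes with the largest rises, Il6 and Lif, and the receptor gene that fell, Il6ra, each read 5′ to 3′ on its own strand. Capitals mark matches to any of 5 motifs, searched on both strands: GGG followed by NNTNN and CC (NF-kB), TGANTCA (AP-1), TGACGTCA (CRE), TTGCNNCAA (C/EBP) and TTCNNNGAA (STAT). Only exact matches to these letters were marked, and the C/EBP pattern is a single spaced form of such a site. Variant sites, of C/EBP and CRE among others, stay in lower case, so lower case does not show that a site is absent.
Il6, chr5:30012864-30013163, plus strand: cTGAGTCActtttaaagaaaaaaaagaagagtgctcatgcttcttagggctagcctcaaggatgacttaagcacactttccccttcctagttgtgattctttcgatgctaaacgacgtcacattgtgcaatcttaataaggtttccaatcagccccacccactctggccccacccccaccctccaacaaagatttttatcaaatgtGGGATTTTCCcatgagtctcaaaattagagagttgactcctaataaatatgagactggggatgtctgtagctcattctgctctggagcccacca
Lif, chr11:4257318-4257617, plus strand: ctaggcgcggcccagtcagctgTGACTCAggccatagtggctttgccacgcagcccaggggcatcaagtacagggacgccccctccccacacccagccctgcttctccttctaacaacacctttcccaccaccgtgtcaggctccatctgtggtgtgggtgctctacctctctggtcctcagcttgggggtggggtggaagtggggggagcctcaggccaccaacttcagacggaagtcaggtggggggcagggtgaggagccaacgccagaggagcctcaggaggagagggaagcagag
Il6ra, chr3:89913147-89913446, minus strand: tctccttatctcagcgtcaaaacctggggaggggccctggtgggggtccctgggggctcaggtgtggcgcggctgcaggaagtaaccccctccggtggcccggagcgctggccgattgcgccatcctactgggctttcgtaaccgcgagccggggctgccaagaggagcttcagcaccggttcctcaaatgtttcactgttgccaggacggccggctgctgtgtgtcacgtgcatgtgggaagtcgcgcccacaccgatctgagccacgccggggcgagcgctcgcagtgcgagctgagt
The Il6 window held GGGATTTTCC, an NF-kB match, at bases -44 to -35 from the start site, and TGAGTCA, an AP-1 match, at bases -249 to -243. The Lif window held 1 AP-1 match, TGACTCA, at bases -228 to -222. No exact match to any of the 5 motifs was found in the Il6ra window or in the Il6st window (chr13:112463820-112464119). Over all 32851 start-site windows in the RefSeq table, 18.4% held the NF-kB motif and 7.81% the AP-1 motif. Guanine and cytosine made up 44% of the Il6 window, 63.7% of the Lif window, 66% of the Il6ra window and 68.3% of the Il6st window.

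Total counts lay between 26010455 and 34208286 per AMLE library and between 28457863 and 31413578 per DMSO library. The first principal component of the log2 CPM (counts per 1000000), with 77.1% of the variance, parted the groups, and AMLE replicate 3 was the AMLE library nearest to the DMSO libraries. Of 7 dendritic cell markers, which define the labelled cell type, Flt3, Zbtb46, Ccr7 and Cd86 rose and H2-Ab1 fell (edgeR adjusted p = 0.0408; lost in 5 of 12 alternatives), and their summed level was 6290 to 7070 CPM in AMLE libraries and 5350 to 8000 CPM in DMSO libraries. Neutrophil and precursor markers were abundant (7810 to 11200 CPM in AMLE and 11000 to 17900 CPM in DMSO libraries), and 4 of the 6 in the table fell (Mpo, Elane, Camp and Ltf). Most of that sum was S100a8 and S100a9, with means of 3310 and 5700 CPM in AMLE and 4780 and 7750 CPM in DMSO. Neither of them was called (edgeR adjusted p = 0.0679 and 0.128), but 4 of 12 alternatives called S100a8 and 3 called S100a9. With the replicate number as a block all 6 neutrophil and precursor markers were called lower. Of 6 macrophage markers C1qa, C1qb and Fcgr1 fell and Adgre1 rose (edgeR adjusted p = 0.0311). The Adgre1 call was lost without AMLE replicate 1, AMLE replicate 2, DMSO replicate 1 or DMSO replicate 3. The 6 macrophage markers together summed to 848 to 1440 CPM in AMLE and 1370 to 1600 CPM in DMSO libraries.

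Of the 8 genes, 7 passed the low-count filter, and of these Il6, Lif, Osm, Il6st and Il10ra rose in AMLE-treated cells, Il6ra fell and Il10rb did not pass the test. A gene was called at a Benjamini-Hochberg adjusted p below 0.05 in edgeR's quasi-likelihood test over 13075 genes. The same test called 48.6% of all tested genes, 23.0% higher and 25.6% lower in AMLE, so a call by itself is common in this comparison. The AMLE and DMSO libraries did not overlap for 6 of the 7 tested genes, against 59.7% of all tested genes. Levels are in CPM, based on each library's total times its TMM factor. They are not divided by transcript length, since no exon lengths were at hand, and are therefore compared between libraries and not between genes.

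Il6 had the largest rise among the ligand genes. Its values were 22.0, 29.3 and 11.3 CPM in AMLE replicates 1 to 3 and 4.51, 5.58 and 4.34 CPM in DMSO replicates 1 to 3. Every AMLE library lay above every DMSO library, and AMLE replicate 3 held less than the other AMLE libraries. The means were 20.9 ± 9.03 CPM in AMLE and 4.81 ± 0.673 CPM in DMSO (SD, n = 3 each), a 4.36-fold rise (2.12 ± 0.34 on the log2 scale, SE; adjusted p = 0.00252, edgeR). Without AMLE replicate 3 the log2 fold change was 2.43, and without AMLE replicate 2, the highest library, it was 1.80.

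Lif, which encodes a cytokine that acts through LIFR and gp130, followed the same order of libraries. Its values were 15.1, 17.6 and 10.6 CPM in AMLE replicates 1 to 3 and 5.63, 5.79 and 3.48 CPM in DMSO replicates 1 to 3. The lowest AMLE library held more than the highest DMSO library, and in each group the library numbered 3 was the lowest. Lif rose 2.90-fold (log2 fold change 1.54 ± 0.25, SE; edgeR adjusted p = 0.0026).

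Osm, whose product oncostatin M is released by activated myeloid cells, rose less. Its libraries held 71.0, 71.2 and 54.9 CPM in AMLE replicates 1 to 3 and 40.4, 43.7 and 32.5 CPM in DMSO replicates 1 to 3. Again the groups did not overlap and the libraries numbered 3 were the lowest of their group. The means were 65.7 ± 9.33 CPM in AMLE and 38.9 ± 5.78 CPM in DMSO (SD, n = 3 each), a 1.69-fold rise (0.76 ± 0.14 on the log2 scale, SE; adjusted p = 0.00454, edgeR).

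Il10 was close to the limit of detection in both groups. It had 3, 3 and 4 reads in AMLE replicates 1 to 3 and 0, 2 and 2 reads in DMSO replicates 1 to 3, which is 10 reads over the AMLE group and 4 over the DMSO group. The groups did not overlap, no library exceeded 0.153 CPM, and the gene did not pass the low-count filter. A two-sided exact permutation test over the 6 libraries gave p = 0.1, the smallest that 3 against 3 libraries allow, and edgeR with no low-count filter gave an unadjusted p of 0.16 and an adjusted p of 0.287. At this depth a difference in Il10 was not detectable, and no fold is given.

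**Figure D1:**
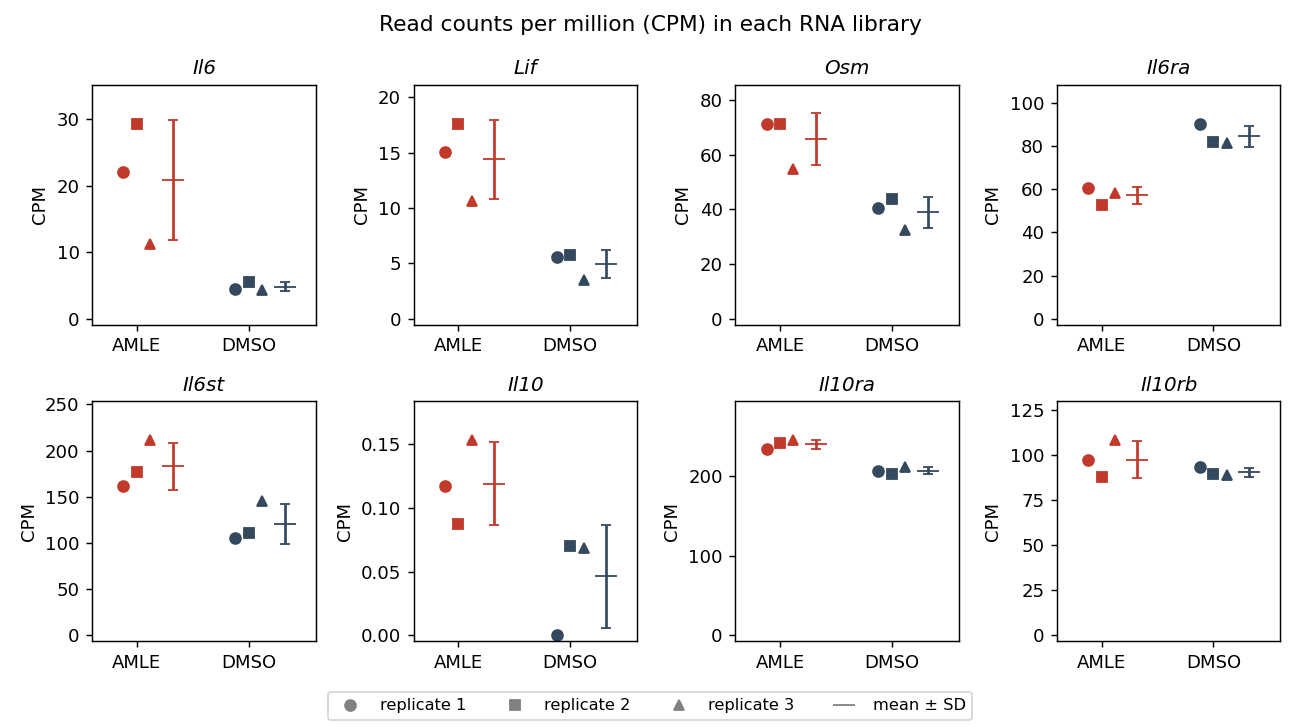
CPM of each of the 8 genes in every RNA library (vertical axes, linear, a scale of its own for each gene), AMLE left of DMSO; symbols mark the replicate number and the bar the mean with its SD over 3 libraries. Il6, Lif, Osm, Il6st and Il10ra sit higher in all 3 AMLE libraries and Il6ra sits lower, Il10rb overlaps between the groups, and the highest Il10 value is 0.153 CPM.

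Markers of other cells moved beside the ligand genes. Mast cell and basophil markers summed to 508, 541 and 265 CPM in AMLE replicates 1 to 3 and to 266, 269 and 152 CPM in DMSO replicates 1 to 3. Of these 5 markers, 3 were called higher (Mcpt8, Cpa3 and Fcer1a). The number was 5 with the replicate number as a block and 5 without AMLE replicate 3. It was 1 with no low-count filter, and 1 without AMLE replicate 1, AMLE replicate 2, DMSO replicate 2 or DMSO replicate 3. Among 5 stromal and endothelial markers Pecam1 rose and Col1a1 fell. The Pecam1 call was lost with no low-count filter and without AMLE replicate 1, AMLE replicate 2 or DMSO replicate 3. The Col1a1 call was lost with DESeq2 and without any 1 library other than AMLE replicate 3. The summed level of the 5 stromal and endothelial markers was 39.0 to 95.6 CPM in AMLE and 23.3 to 34.7 CPM in DMSO libraries. Most of that sum was Pecam1 (36.4 to 92.1 CPM in AMLE and 20.3 to 32.3 CPM in DMSO libraries), so it follows a single gene and not the stromal markers as a set. The collagen genes Col1a1, Col1a2 and Col3a1, which define fibroblasts, each averaged below 1 CPM in both groups, at 0.573, 0.0257 and 0.0421 CPM in AMLE and 0.966, 0.0106 and 0 CPM in DMSO. Lymphocyte markers summed to 18.7 to 27.7 CPM in AMLE and 17.9 to 26.7 CPM in DMSO libraries. The part of these cells, or of the neutrophils and macrophages described above, in the rise of Il6, Lif and Osm was not tested.

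Among the receptor chains, Il6ra fell while Il6st rose. Il6ra, the chain that gives a cell its own response to IL-6, stood at 60.4, 52.6 and 58.1 CPM in AMLE replicates 1 to 3 and at 90.1, 81.8 and 81.2 CPM in DMSO replicates 1 to 3. All AMLE libraries lay below all DMSO libraries, and the spread within each group was small. The means were 57.1 ± 4.00 CPM in AMLE and 84.3 ± 4.98 CPM in DMSO (SD, n = 3 each), a fold of 0.676 (log2 fold change -0.56 ± 0.07, SE; edgeR adjusted p = 0.000697).

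Il6st, which encodes gp130, stood at 162, 177 and 211 CPM in AMLE replicates 1 to 3 and at 105, 111 and 145 CPM in DMSO replicates 1 to 3. The groups did not overlap, and the library numbered 3 was the highest in each group, where it was the lowest for Lif and Osm. Il6st rose 1.52-fold (log2 fold change 0.60 ± 0.15, SE; edgeR adjusted p = 0.0135). The call was lost without DMSO replicate 2 (adjusted p = 0.0525), which left 4 of the 8 genes called higher in place of 5, and the adjusted p was 2.76e-05 with the replicate number as a block.

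Il10ra, the ligand-binding chain for IL-10, changed little in size. Its libraries held 234, 242 and 245 CPM in AMLE replicates 1 to 3 and 207, 203 and 212 CPM in DMSO replicates 1 to 3. The groups did not overlap, and the rise was 1.16-fold (log2 fold change 0.21 ± 0.05, SE; edgeR adjusted p = 0.00672). Il10rb, the shared second chain, had 97.0, 87.5 and 108 CPM in AMLE replicates 1 to 3 and 93.4, 89.2 and 89.0 CPM in DMSO replicates 1 to 3. Its groups overlapped, and its log2 fold change was 0.10 ± 0.08 (SE; edgeR adjusted p = 0.29).

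Ratios of read counts within a library do not depend on the scaling, and gene length cancels in the change of a ratio between groups. Il6 reads per Il6ra read were 0.364, 0.557 and 0.195 in AMLE replicates 1 to 3 and 0.0501, 0.0683 and 0.0535 in DMSO replicates 1 to 3, so that the geometric mean ratio was 6.00-fold higher in AMLE with no overlap. Il6ra reads per Il6st read were 0.374, 0.298 and 0.275 in AMLE replicates 1 to 3 and 0.854, 0.737 and 0.558 in DMSO replicates 1 to 3, a fold of 0.443, again with no overlap. Both had p = 0.1 in a two-sided exact permutation test (0.2 adjusted over the 4 ratios), the smallest p possible here. Osm reads per Il6st read were 0.439, 0.403 and 0.260 in AMLE replicates 1 to 3 and 0.383, 0.394 and 0.223 in DMSO replicates 1 to 3. These overlapped (log2 difference 0.15, exact permutation p = 0.5), were lowest in the library numbered 3 of each group, and the log2 difference was -0.12 without DMSO replicate 3. Within same-numbered AMLE and DMSO libraries the Osm to Il6st ratio was higher in AMLE in 3 of 3 pairs, by 0.20, 0.03 and 0.22 on the log2 scale (two-sided exact sign-flip permutation p = 0.25, the smallest that 3 pairs allow). Il10ra reads per Il10rb read averaged 2.48 ± 0.255 in AMLE and 2.29 ± 0.0855 in DMSO (SD, n = 3 each; exact permutation p = 0.2).

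**Figure D2:**
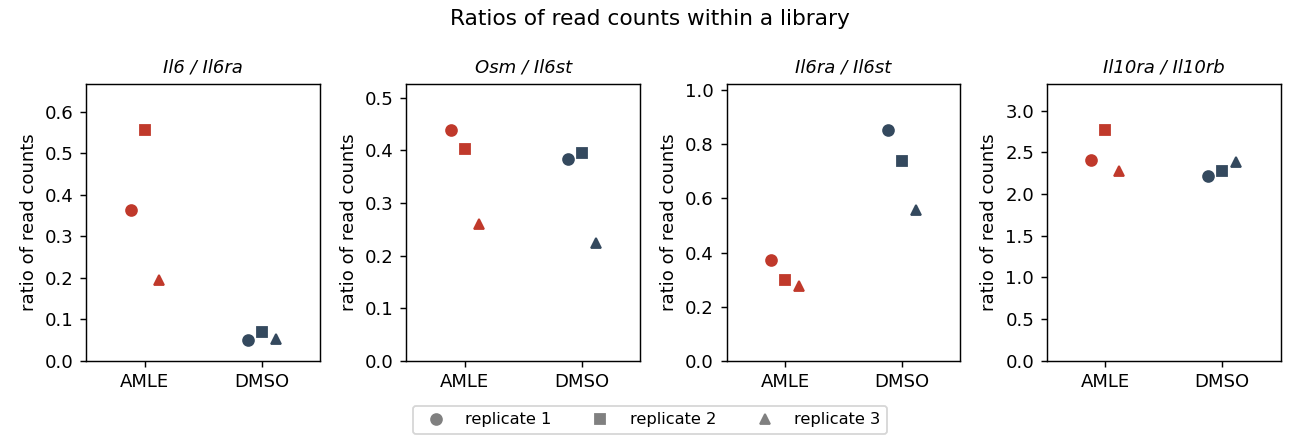
Ratio of read counts of gene pairs within each RNA library (vertical axes, linear, no units), AMLE left of DMSO, with the replicate number as symbol. Il6 per Il6ra is higher and Il6ra per Il6st lower in every AMLE library, while the groups overlap for Osm per Il6st and for Il10ra per Il10rb.

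The partner chains of the LIF and oncostatin M receptors were low or at 0. Osmr had no read in any of the 6 libraries, and neither had Cntfr, the receptor chain for ciliary neurotrophic factor; a count of 0 allows up to 0.117 CPM in the shallowest library, with counting error alone. Lifr averaged 6.58 ± 1.71 CPM in AMLE and 7.43 ± 0.547 CPM in DMSO (SD, n = 3 each; log2 fold change -0.17, edgeR adjusted p = 0.477), and was called lower without AMLE replicate 2 (-0.40, adjusted p = 0.0464). Of 13 other IL-6 family ligands and receptors 7 were tested and 1 was called, against 48.6% of all tested genes. The median log2 fold change of these 7 was 0.05, against -0.005 over all tested genes. The number called higher was 2 without AMLE replicate 3. The called gene was Il27ra, the receptor chain for IL-27, at 7.28 ± 1.37 CPM in AMLE and 5.32 ± 0.345 CPM in DMSO (log2 fold change 0.46 ± 0.15, SE; edgeR adjusted p = 0.0397). That call was lost without AMLE replicate 2 or without any 1 of the DMSO replicates (the adjusted p reached 0.123). Ebi3, a subunit of IL-27 and the most abundant of these by reads, had a log2 fold change of 0.05 ± 0.11 (SE; edgeR adjusted p = 0.742). Of 11 other IL-10 family genes only the receptor genes Ifnlr1 (log2 fold change 0.31, edgeR adjusted p = 0.116) and Il20rb (0.27, adjusted p = 0.233) passed the low-count filter, and neither was called.

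Most genes of the list that holds both carriers of the signal and brakes on it were higher in AMLE. Of 15 kinases, STAT factors and brakes tested, 11 rose and 2 fell, with a median log2 fold change of 0.54. The shares over all tested genes were 23.0% higher and 25.6% lower. The genes that rose included the brakes Socs1, Socs2, Socs3 and Pias3. Stat3, the factor shared by IL-6 and IL-10 signalling, stood at 375 ± 11.3 CPM in AMLE and 236 ± 4.24 CPM in DMSO (SD, n = 3 each; log2 fold change 0.67 ± 0.05, SE; edgeR adjusted p = 9.18e-05). Socs2 (1.30 ± 0.15) and Stat5a (1.10 ± 0.12), which belong to the GM-CSF and growth hormone type of STAT5 signalling, had the largest log2 rises. Jak2, the most abundant by reads, rose by 0.72 ± 0.10 on the log2 scale. Socs3, the brake that binds gp130, rose by 0.44 ± 0.07, with 160, 146 and 152 CPM in AMLE replicates 1 to 3 and 115, 121 and 101 CPM in DMSO replicates 1 to 3. The phosphatase genes Ptpn6 (-0.26 ± 0.07) and Ptpn11 (-0.12 ± 0.04) fell, but the call on Ptpn11 was lost under 11 of 12 alternatives and that on Ptpn6 without DMSO replicate 1 or 2. Jak1 (0.13 ± 0.05) was called in 3 of 12 alternatives, and the call on Socs1 (0.62 ± 0.17), a brake on JAK kinases, was lost with no low-count filter and without AMLE replicate 1, AMLE replicate 2 or DMSO replicate 3 (adjusted p up to 0.0688, edgeR). In each of these 4 alternatives 9 genes of the list rose.

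Genes known to respond to STAT3 or to IL-10 in macrophages rose in 11 of 15 cases and fell in 1, with a median log2 fold change of 0.61. Over all tested genes 23.0% were called higher and 25.6% lower. Which signal moved the listed genes was not tested. Ddit4, a brake on mTORC1 signalling, stood at 54.3, 48.2 and 50.8 CPM in AMLE replicates 1 to 3 and at 14.1, 15.4 and 10.9 CPM in DMSO replicates 1 to 3. It rose 3.79-fold (log2 fold change 1.92 ± 0.13, SE; edgeR adjusted p = 8.31e-05). The repressor genes Nfil3 (1.25 ± 0.15) and Etv3 (1.10 ± 0.11) and the co-regulators Bcl3 (0.61 ± 0.05) and Sbno2 (0.62 ± 0.05) rose on the log2 scale, as did Il1rn, the IL-1 receptor antagonist (1.11 ± 0.16), and Mcl1, the most abundant of the list by reads (0.36 ± 0.05). Cebpd, a C/EBP factor gene, was the one that fell, with 30.3, 23.4 and 35.6 CPM in AMLE replicates 1 to 3 and 52.4, 50.2 and 49.5 CPM in DMSO replicates 1 to 3 (log2 fold change -0.77 ± 0.14). Fos (0.63 ± 0.27, edgeR adjusted p = 0.09), Pim1 (0.19 ± 0.07, adjusted p = 0.0581) and Cebpb (0.27 ± 0.15, adjusted p = 0.18) did not pass. Socs3 stands in this list and in the preceding one.

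**Figure D3:**
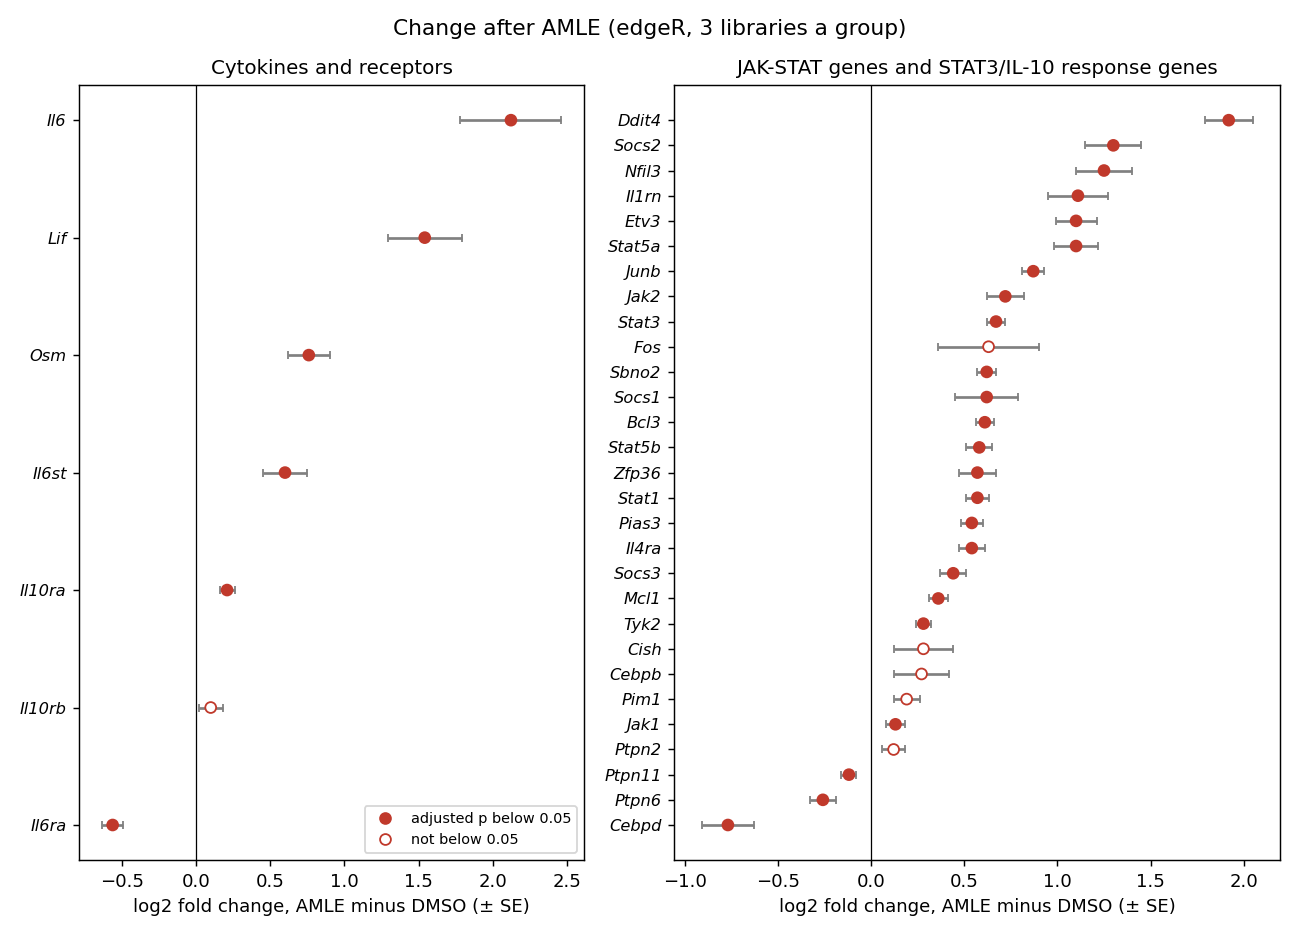
Log2 fold change, AMLE minus DMSO (horizontal axes, ± SE), of the 7 tested cytokine and receptor genes (left) and of the JAK-STAT and STAT3 or IL-10 response genes (right); filled points had an edgeR adjusted p below 0.05. Il6 lies farthest right on the left panel at 2.12 and Il6ra farthest left at -0.56; on the right panel Ddit4 is highest at 1.92 and Cebpd lowest at -0.77.

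Regulators of Il6 and Il10 transcription and mRNA moved in both directions, with 8 of 16 higher and 2 lower (Cebpd and Batf) and a median log2 fold change of 0.25. Among all tested genes 48.6% were called, 23.0% higher and 25.6% lower, so calls in this list are not particular to it. Rel, an NF-kB subunit (1.15 ± 0.08), Nfkb1, the most abundant of the list by reads (0.66 ± 0.09), and Rela (0.36 ± 0.05) rose on the log2 scale. Prdm1, which encodes BLIMP-1, stood at 38.4 ± 7.81 CPM in AMLE and 9.80 ± 1.01 CPM in DMSO (SD, n = 3 each), a 3.92-fold rise (edgeR adjusted p = 0.000189). Proteins with opposite roles on Il6 mRNA were both encoded by rising genes: Arid5a, a stabiliser (0.81 ± 0.15), and the decay factors Zfp36 (0.57 ± 0.10) and Zc3h12a, which encodes Regnase-1 (0.19 ± 0.05). The call on Zc3h12a was lost without AMLE replicate 1 or any 1 of the DMSO replicates. Batf (-0.20 ± 0.06) was not called with DESeq2 or when any library was left out, and Maf, a driver of Il10 transcription, was at 3.76 ± 1.48 CPM in AMLE and 1.88 ± 0.468 CPM in DMSO (log2 fold change 0.99 ± 0.32, edgeR adjusted p = 0.0382; lost without any 1 library other than AMLE replicate 3). The proteases that shed the IL-6 receptor from the cell surface, Adam10 (0.11 ± 0.05, edgeR adjusted p = 0.118) and Adam17 (-0.07 ± 0.12, adjusted p = 0.638), were not called.

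The genes most like each member were found by the root mean square difference between centred log2 CPM profiles over the 6 libraries, among genes with a mean of at least 10 CPM. For Il6 these were Mir155hg (0.101 log2 units; log2 fold change 2.03) and Wbscr27 (0.139; 2.20). For Lif they were Ctla2a (0.062), whose reads may be shared with a close copy, and Cacna1d (0.117), and for Osm the chemokine gene Ccl3 (0.068) and Usp11 (0.072). For Il6ra they were Lrrc59 (0.028) and Klhl6 (0.031), and for Il6st Rgs10 (0.038) and Cercam (0.054). The flatter profiles of Il10ra and Il10rb were nearest to those of Ap2b1 (0.013) and Crbn (0.013), and of Tlr4 (0.019) and Sec14l1 (0.022). The distances describe these libraries only.

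Open chromatin was described by the peaks called in each ATAC library, merged into 24542 regions. Of these, 22 lay in one of the 8 genes or within 10 kb of it, and every one of the 8 genes had at least 1, as had 91.8% of the genes tested in RNA. Other genes, not analysed here, overlap the windows of Il6 (A230098N10Rik), Osm (Gm11956), Il6ra (Gm46811), Il10ra (BC049352 and Mir7086) and Il10rb (Ifnar2). Regions in these windows may therefore belong to a neighbour. A peak was called in all 4 libraries in 9 of the 22 regions, in 3 libraries in 5, in 2 libraries in 1 and in a single library in 7. Over all regions 49.0% had a peak in all 4 libraries, 5.95% had one in both DMSO and no AMLE library, and 0.460% had one in both AMLE and no DMSO library. None of the 22 regions had either of these last patterns. Of the 22 regions, 14 and 13 held a peak in AMLE replicates 1 and 2, and 18 and 15 in DMSO replicates 1 and 2. The lists themselves differed in size, with 15805 and 15597 intervals in AMLE and 18460 and 19225 in DMSO libraries, so a missing peak in AMLE can also come from a shorter list. Over all intervals the median −log10 q was 12.7 and 13.1 in AMLE replicates 1 and 2 and 14.6 and 17.5 in DMSO replicates 1 and 2. The −log10 q and fold enrichment are the values of the authors' peak caller and are not compared between libraries, and 2 against 2 libraries are too few for an exact test to reach the threshold.

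The ligand genes Il6 and Lif, which rose most in RNA, had no peak at the start site in either AMLE library. For Il6 (chr5:30013114-30019975), the single region was chr5:30012903-30013475, which covers the start site and the NF-kB match printed above. A peak was called there in DMSO replicate 1 only, at −log10 q 3.74 and a fold enrichment of 4.43. For Lif (chr11:4257568-4272514) a weak peak before the start site was called in DMSO replicate 2 only (−log10 q 1.49), at chr11:4257240-4257447, which covers the AP-1 match. A region inside Lif, centred 1296 bases after the start site, had a peak in AMLE replicates 1 and 2 (−log10 q 2.89 and 7.65) and in DMSO replicate 2 (10.3). Osm (chr11:4236785-4241026) had peaks in all 4 libraries over its low-coordinate end (−log10 q 3.96 and 16.8 in AMLE replicates 1 and 2, and 15.8 and 21.7 in DMSO replicates 1 and 2) and 3758 bases to the left of it. Il10 (chr1:131019845-131024970) had no peak inside the gene in any library. A region 860 bases beyond its high-coordinate end had a peak in AMLE replicate 2 (−log10 q 9.17) and in DMSO replicates 1 and 2 (8.89 and 15.0), and one 4236 bases to its left had a peak in AMLE replicate 1 only (2.25).

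The receptor genes had peaks of all 4 libraries at or near a gene end. Within 1 kb of the start site, 68.1% of the tested genes with a RefSeq start-site entry had such peaks. At Il6st (chr13:112464070-112506860) the start-site region, chr13:112463701-112464489, had −log10 q 58.4 and 56.2 in AMLE replicates 1 and 2 and 67.1 and 79.2 in DMSO replicates 1 and 2. At Il6ra (chr3:89869324-89913196, minus strand) the start-site region had −log10 q 19.1 and 22.9 in AMLE replicates 1 and 2 and 31.6 and 32.6 in DMSO replicates 1 and 2. The fold enrichments of this start-site region overlapped, at 6.59 and 7.82 in AMLE replicates 1 and 2 and 7.41 and 6.69 in DMSO replicates 1 and 2. A second region shared by all libraries lay inside Il6ra, centred 1812 bases after the start site (chr3:89911170-89911599), with −log10 q 8.74 and 6.66 and fold enrichments of 4.52 and 4.26 in AMLE replicates 1 and 2, and −log10 q 32.3 and 51.1 and fold enrichments of 7.47 and 8.62 in DMSO replicates 1 and 2. Il6ra had 3 further regions, each with a peak in DMSO replicate 1, and 1 of them also in AMLE replicate 1.

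Il10ra (chr9:45253837-45269149) had 4 regions, of which 3 held peaks of all 4 libraries. The one inside the gene, at its high-coordinate end, had −log10 q 5.33 and 15.8 in AMLE replicates 1 and 2 and 12.3 and 16.9 in DMSO replicates 1 and 2. Il10rb (chr16:91406157-91425834) had a region of all 4 libraries over its low-coordinate end (−log10 q 13.0 and 19.4 in AMLE replicates 1 and 2, and 32.2 and 41.0 in DMSO replicates 1 and 2). That region lies close to the end of the neighbouring interferon receptor gene Ifnar2, so it cannot be given to Il10rb alone. A region inside Il10rb had a peak in AMLE replicate 1 (−log10 q 1.35) and in DMSO replicates 1 and 2 (11.7 and 4.27).

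**Figure D4:**
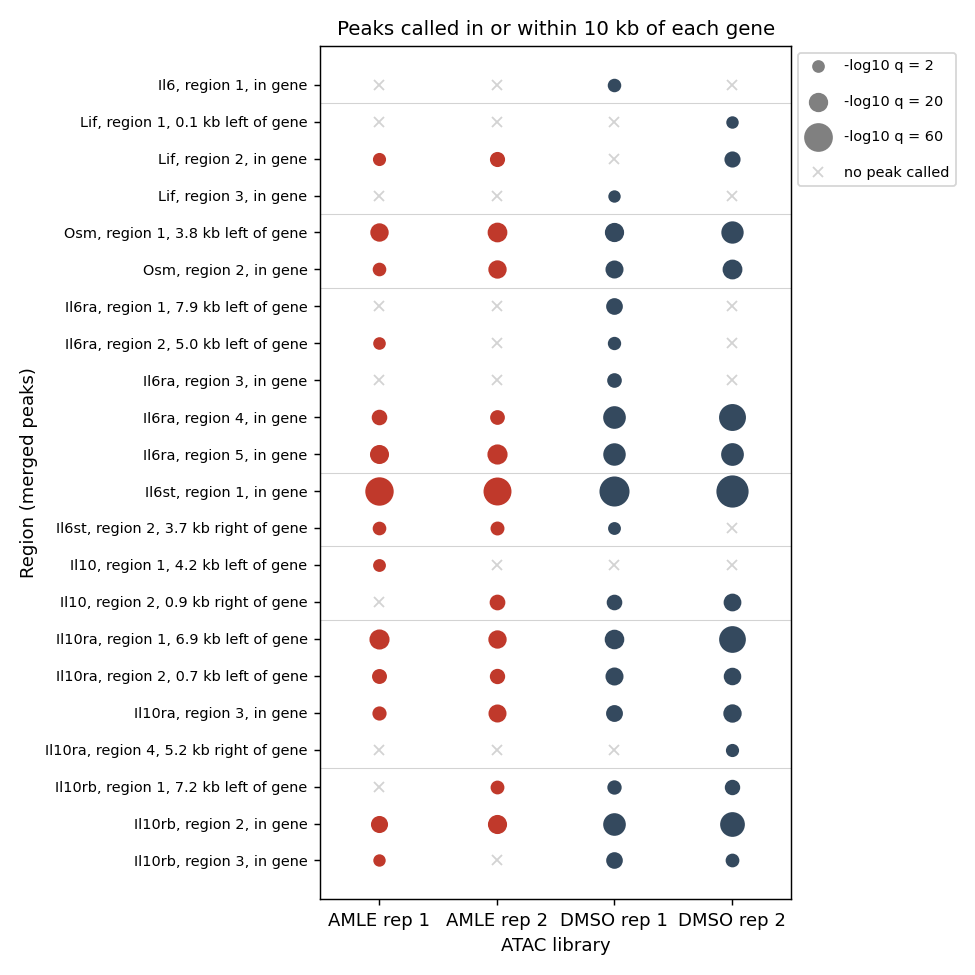
The 22 merged ATAC regions in or within 10 kb of the 8 genes (rows) against the 4 ATAC libraries (columns, AMLE left of DMSO); a dot is a called peak, its area growing with the authors' −log10 q, and a cross is no called peak. Il6 has a single dot, in DMSO replicate 1, while the start-site region of Il6st has large dots in all 4 libraries.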

How the data were processed

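RNA libraries were stranded poly(A) libraries, per the labels' protocols, and the authors deposited raw read counts per gene symbol for 24385 genes, of which 6459 had no count. The submitters' processing notes list build mm10, STAR 2.7.11b, Bowtie2 2.4.4 and MACS3 3.0.0a7, and also SAMtools 1.7, Trim Galore 0.6.7, deepTools 3.5.1, HOMER, FastQC, ChIPseeker 1.30.0 and Picard, with no roles. How reads were counted (tool, strand, annotation) was not given in the sources used here. For ATAC the authors deposited a peak list per library with a fold enrichment (a ratio) and a −log10 q per summit; the consensus lists were not used.

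Counts were tested with edgeR 4.0.16 in R 4.3.3 (TMM, default low-count filter with a minimum count of 10, robust quasi-likelihood F test, two-sided, Benjamini-Hochberg over 13075 genes). The code was run on simulated counts in which far fewer genes changed than were called here. That run does not check error rates where so many genes change. Log2 fold changes are AMLE minus DMSO, and their SE, the absolute value over the square root of F, is approximate. Alternatives were RLE size factors, DESeq2 1.42.0, limma-voom (limma 3.58.1), no filter, a replicate block and left-out libraries. Same-numbered AMLE and DMSO libraries deviated together from their group means (correlations of 0.30, 0.29 and 0.44 for numbers 1, 2 and 3 over tested genes). Other matchings of the numbers were not compared, so a pairing was not tested, and the labels do not state one. Likeness used log2(CPM + 0.1). Peaks of the 4 libraries were merged where they shared a base. Named from each gene list were the 2 called genes with the largest change (mean of at least 1 CPM) and the most abundant gene; further genes were named after their values were seen. The genes, lists and tests were chosen with earlier results of these data known. Marker lists covered dendritic cells, macrophages, neutrophils, mast cells and basophils, lymphocytes and stromal cells. No per-sample column was left unused.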

Additional observations from a re-analysis of the deposited data

How the results depend on the processing

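The 6 calls among the 8 genes kept direction and side of the threshold under all 12 alternatives, except Il6st without DMSO replicate 2 (0.54, adjusted p = 0.0525), and Il10rb was called under none of them. Over these alternatives the log2 fold change ran from 1.80 to 2.43 for Il6, 1.34 to 1.73 for Lif, 0.64 to 0.88 for Osm, -0.60 to -0.50 for Il6ra, 0.50 to 0.76 for Il6st, 0.20 to 0.25 for Il10ra and 0.03 to 0.18 for Il10rb. With a replicate block 5 of the 8 genes were higher and 1 lower, as without it, and over all genes 3434 were higher and 3813 lower in place of 3004 and 3346. Among the genes of the signalling, response and regulator lists named or plotted, the block ended the calls of Jak1 and Ptpn11 and added calls of Cish, Pim1 and Fos. Among the named cell markers it added calls of S100a8 and S100a9, both lower in AMLE. With 1 library left out the genes higher in AMLE numbered 2263 to 3308 and those lower 2666 to 3475, and 4 to 5 of the 8 genes were higher. The log2 difference of a count ratio ran from 2.23 to 2.99 for Il6 to Il6ra, -1.34 to -1.04 for Il6ra to Il6st, 0.03 to 0.17 for Il10ra to Il10rb and -0.12 to 0.38 for Osm to Il6st.

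Log2 fold changes that were not called turned sign for Lifr without both libraries numbered 3 (0.05; -0.40 to -0.01 with 1 library left out, called lower without AMLE replicate 2), for Ebi3 without DMSO replicate 3 (-0.07; -0.07 to 0.11 with 1 library left out) or without both libraries numbered 3 (-0.02), and for Adam17 without AMLE replicate 2 (0.04; -0.20 to 0.04 with 1 library left out). The cause was not tested.

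Of the ATAC regions, 9 had a peak in every library; this was 18 of 39 regions with a window of 50 kb and 8 to 11 in the other settings. The count with peaks in DMSO libraries only was 0, 1 among peaks with −log10 q of at least 5, and 1 to 4 with 1 library left out. The count with peaks in AMLE libraries only was 0, 1 where peaks had to cover at least 50% of the region, and 0 to 1 with 1 library left out. Leaving out a library makes its group a single list, so these patterns are easier to meet. Depth limits Il10 most, with 14 reads in all.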
